A study of Aspergillus nidulans with 6 samples.

Results

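The genes described here are abundant transcripts of the filamentous fungus Aspergillus nidulans whose average level differed little between cultures given tyrosol and untreated cultures. They were chosen from a deposited table of read counts and RPKM values, RPKM being the share of a library's counted reads that fall on a gene, scaled to gene length. A gene with a plain AN number was taken when all 6 libraries gave at least 150 RPKM and the tyrosol mean divided by the untreated mean lay between 0.85 and its reciprocal rounded to 2 decimals (-0.23 to 0.24 on the log2 scale). Of 10748 such genes 91 met the rule (0.847%), out of 10988 features in all. All 6 libraries came from mycelium of the wild type FGSC A4, grown at 37 °C and 220 rpm in Barratt's minimal broth. For the 3 tyrosol libraries, exponentially growing mycelium was given 35 mM tyrosol, a phenolic alcohol that fungi release, and for the 3 other libraries it was left untreated. The time of exposure is not given in the sources used here, and nothing says whether replicates were separate cultures.

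Most of the 91 genes have no symbol. Those with a symbol have roles in energy conversion, removal of superoxide, folding and breakdown of proteins, vesicle traffic, signalling and the cell wall. The proteasome, which takes up several places among them, is a barrel of alpha and beta subunits that degrades proteins tagged with ubiquitin, capped by a regulatory particle that recognises and unfolds them. Transcripts thought to be steady are often used to scale other transcripts in qPCR, so their behaviour between libraries has a practical side.

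The untreated library of replicate 1 stood apart from the other untreated libraries. Over the 91 genes, the median difference between a pair of tyrosol libraries was 3.21% for replicates 1 and 2, 3.28% for replicates 1 and 3, and 4.35% for replicates 2 and 3. In untreated libraries it was 11.8% for replicates 1 and 2, 15.9% for replicates 1 and 3, and 4.22% for replicates 2 and 3. Without untreated replicate 1 the rule chose 90 genes, 80 of them shared with the 91. Further values without it stand beside some of the results below. Genes that mark conidia and conidiophores, the spores and spore-bearing structures, were checked because the samples are labelled mycelium. In the 6 of these genes named in the reference table, summed levels were 132 to 168 RPKM in tyrosol libraries and 213 to 244 RPKM in untreated libraries, most of it from rodA, a gene of the spore coat, at 131 RPKM with tyrosol and 189 RPKM untreated. The regulator abaA averaged 0.792 RPKM with tyrosol and 2.64 RPKM untreated. Of the 5 tested, 0 were raised and 5 lowered (edgeR's quasi-likelihood test with TMM scaling, Benjamini-Hochberg adjusted p under 0.05 over 8905 features, of which 40.6% were raised and 42.9% lowered), and their part in the results below was not tested. Of the fruiting body markers, nsdD was lowered, at 25.3 RPKM with tyrosol and 42.5 RPKM untreated, and steA was not called, at 85.2 RPKM with tyrosol and 88.8 RPKM untreated.

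In all, 445 genes had at least 150 RPKM in every library, and the 91 genes were 20.4% of them. The ratio of the tyrosol mean to the untreated mean was above this window for 109 abundant genes and below it for 245. The 91 genes together took 5.11 ± 0.0791% of the counted reads in tyrosol libraries and 5.10 ± 0.0396% in untreated libraries (SD, n = 3 each). The 109 genes above the window took 16.8 ± 0.529% of the reads with tyrosol and 7.31 ± 0.151% untreated. The 245 genes below it took 16.5 ± 0.414% with tyrosol and 30.2 ± 0.761% untreated. These shares follow from how the classes were cut and carry no test. In RNA of a whole culture, fewer cells that express a gene and less RNA per cell cannot be told apart, and an RPKM value is a share of the reads, not an amount per cell.

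**Figure D1:**
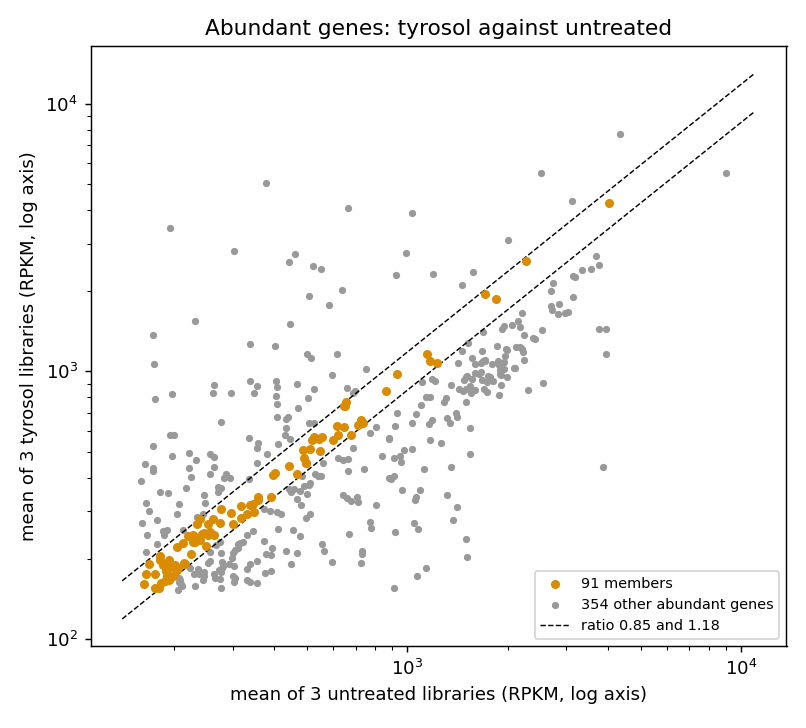
Mean RPKM in 3 tyrosol libraries (vertical log axis) against mean RPKM in 3 untreated libraries (horizontal log axis), one point per gene, for the 445 genes with at least 150 RPKM in all 6 libraries. The 91 members lie between the dashed lines at the limits of the window, and the 354 other abundant genes lie on both sides of them.

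Most members were of moderate abundance. Averaged over the 6 libraries, 23 lay between 150 and 200 RPKM, 25 between 200 and 300, 24 between 300 and 600, 12 between 600 and 1000, and 7 above 1000. The reference table matched 87 of the 91 and gave a symbol to 20 (22.0%), against 18.7% of the 445 abundant genes and 7.08% of all features. Symbols in that table often follow related genes in yeasts or in Aspergillus fumigatus, and the roles below are those of the genes the symbols name. The 71 members without a symbol are given by their numbers alone. The 87 matched genes were spread over all chromosomes, from 7 on IV and on VI to 18 on III.

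Among genes of energy metabolism the leading one was aspf22 (AN5746), which is named after an allergen of A. fumigatus and encodes enolase, a late enzyme of glycolysis. It had 1168, 1121 and 1194 RPKM in the tyrosol libraries, against 1222, 1151 and 1075 RPKM in the untreated libraries. All 3 tyrosol values lay inside the untreated range, and the ratio of means was 1.01. The ATP synthase subunit gene atp4 (AN1534) had 571, 540.3 and 572 RPKM in tyrosol libraries and 557, 534 and 546 RPKM in untreated libraries. Its ranges overlapped, with tyrosol replicates 1 and 3 above every untreated library. For the cytochrome c oxidase subunit gene cox5b (AN4525) the groups did not overlap: it had 1046, 1047 and 1127 RPKM with tyrosol and 1319, 1198 and 1162 RPKM untreated. Its ratio of 0.875 kept it inside the window although every tyrosol library was below every untreated one.

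A symbol list for the citric acid cycle, respiration and ATP synthase held 7 genes, atp4 and cox5b among them, of which edgeR called 1 raised (atp4), 4 lowered and 2 in neither direction (cox5b and cox15), against a background of 40.6% of 8905 tested features raised and 42.9% lowered. All 4 lowered genes were among the 5 that were not members. The list had a median log2 fold change of -0.21, against -0.04 over all features tested. The aconitase gene acoA averaged 72.3 RPKM with tyrosol and 399 RPKM untreated, and the Rieske iron-sulphur protein gene rip1 of the cytochrome bc complex 377 ± 21.2 RPKM with tyrosol and 508 ± 23.4 RPKM untreated (SD, n = 3 each). Of glycolysis, the symbol list found gpdA and pgkA, while enolase under its allergen name is not on it, and both were lowered. The phosphoglycerate kinase gene pgkA averaged 493 RPKM with tyrosol and 1537 RPKM untreated, a ratio of 0.321.

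The superoxide dismutase genes sod1 and sod2 were members. Superoxide dismutases turn superoxide into hydrogen peroxide, sod1 encoding the copper and zinc enzyme and sod2, in yeast, the manganese enzyme of mitochondria. The sod1 gene (AN0241) had 814, 888 and 838 RPKM in tyrosol libraries and 790.5, 929 and 869 RPKM in untreated libraries, with the tyrosol values inside the untreated range. With TMM scaling edgeR called it raised (log2 fold change 0.20), a call lost without any one of 5 libraries (all except untreated replicate 2), at log2 fold changes of 0.14 to 0.25. The sod2 gene (AN5577) had 395, 417 and 441 RPKM with tyrosol and 409.7, 422 and 375 RPKM untreated, and the groups overlapped. With TMM scaling edgeR called sod2 raised as well (log2 fold change 0.28), a call kept when any 1 library was left out (0.23 to 0.34). With library size only, the log2 fold change of sod2 was 0.05. The hydrogen peroxide that these enzymes make is split by catalases, and the abundant catalase gene cat1 (AN9339) was no member, at 2291 RPKM with tyrosol and 928 RPKM untreated.

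Proteasome genes were the largest group with one function among the named members, with 6 of the 20. The catalytic beta subunit gene pre3 (AN3756) had 234, 231 and 222 RPKM in tyrosol libraries and 188, 236 and 215 RPKM in untreated libraries. The beta subunit gene pre1 (AN4457) had 224, 224 and 214 RPKM with tyrosol and 178, 212 and 224 RPKM untreated. In both genes untreated replicate 1 was the lowest of the 6 libraries and the other 5 lay close together.

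Untreated replicate 1 was also the lowest of the 6 libraries in the next 3 genes. The beta subunit gene pre4 (AN10708) had 193, 198 and 178 RPKM with tyrosol and 169, 221 and 215 RPKM untreated, and the alpha subunit gene pre5 (AN6547) 191, 198 and 181 RPKM with tyrosol and 165, 193 and 197 RPKM untreated. The regulatory particle gene rpnL (AN3019) had 182, 185 and 173 RPKM with tyrosol and 169, 203 and 196 RPKM untreated. Untreated replicate 1 was the lowest untreated library in all 6 genes, against 61.5% of all members and 40.5% of features tested. Log2 fold changes with TMM scaling were 0.33 for pre3 and pre1, 0.14 for pre4, 0.26 for pre5, 0.15 for rpnL and 0.0026 for pup3. Without that library they were 0.25 for pre3, 0.24 for pre1, 0.029 for pre4, 0.19 for pre5, 0.079 for rpnL and -0.048 for pup3. In 5 of the 6 genes the groups overlapped. The beta subunit gene pup3 (AN4449) was the exception, with 172, 161 and 165 RPKM with tyrosol, all below its 179, 195 and 208 RPKM in untreated libraries, and with a ratio of 0.857 it was close to the lower edge of the window.

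Other subunits of the same particle fell outside the rule on level or on ratio. The symbol list for proteasome and ubiquitin genes held 22 genes, of which 9 were raised, 5 lowered and 8 not called, beside 40.6% of all tested features raised and 42.9% lowered, with a median log2 fold change of 0.14 against -0.04 over all features tested. The list picks symbols by their first letters and so also holds preA and preB, which are known as pheromone receptor genes and not proteasome genes. Without them, 8 of 20 genes were raised, a share close to that of all features, 4 were lowered and 8 were not called. Ratios of 10 of the 22 lay inside the window. Among abundant subunits outside it, pre2, a catalytic beta subunit, averaged 153 ± 1.36 RPKM with tyrosol and 206 ± 11.6 RPKM untreated (SD, n = 3 each), a ratio of 0.744. The alpha subunit genes pup2 and pre6 had ratios of 0.787 and 1.30. The catalytic subunit gene pup1 missed the level alone, with 132 RPKM with tyrosol and 134 RPKM untreated. The RPKM ratios of subunits of this one particle lay on both sides of 1.

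The folding enzyme gene cyp4 (AN3814), a cyclophilin that speeds the turning of proline bonds, had the smallest spread of all members between untreated libraries. It had 567, 580.2 and 559 RPKM in tyrosol libraries and 528, 525 and 526 RPKM in untreated libraries. The coefficient of variation (CV, the SD divided by the mean) was 1.92% with tyrosol and 0.285% untreated, the untreated one being below what counting error alone would give. Every tyrosol library lay above every untreated one, at a ratio of 1.08. Of 8 genes that the symbol list for heat shock and folding found, 1 was raised and 7 were lowered, beside 40.6% of all tested features raised and 42.9% lowered. Their median log2 fold change was -1.95, against -0.04 over all features tested. The list picks symbols by their first letters, so its cprA, 1 of the lowered genes, need not be a folding gene. It does not hold cyp4.

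The 5 members of signalling and traffic pathways had RPKM ratios under 1, from 0.874 to 0.971, whereas with TMM scaling their log2 fold changes were above 0, from 0.030 to 0.18. On that scale edgeR called 0 of them changed, beside 83.5% of all tested features. The window chose these genes for close means, so nothing is read from this. With library size only, artA and mpkB were called lowered, at log2 fold changes of -0.19 and -0.18, and with DESeq2 sar1 was called raised, at 0.23. Leaving out tyrosol replicate 3 or untreated replicate 3 also had sar1 called raised, at 0.24 and 0.20. The sign of artA turned without untreated replicate 2 (-0.0027), and that of rgsA without untreated replicate 3 (-0.059), while rgsA was at 0.16 without untreated replicate 1. The 14-3-3 protein gene artA (AN4501), whose product binds phosphorylated proteins, had 631, 664 and 637 RPKM in tyrosol libraries and 791, 706 and 714 RPKM in untreated libraries, with no overlap. The gene of the small GTPase Rho1 (rho1, AN5740), which switches on glucan synthesis in the cell wall, had 566, 546 and 558 RPKM with tyrosol and 599, 568 and 637 RPKM untreated. Its groups did not overlap either, by a margin of under 2 RPKM.

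The MAP kinase gene mpkB (AN3719), which serves fungal development, had 153, 157 and 155 RPKM with tyrosol, below its 182, 177 and 168 RPKM in untreated libraries. For rgsA (AN5755), a regulator that ends G protein signals, the tyrosol libraries had 166, 168 and 161 RPKM and the untreated libraries 217, 183 and 163 RPKM, so that untreated replicate 3 lay among the tyrosol values. The GTPase gene sar1 (AN0411), which starts the coat of vesicles leaving the endoplasmic reticulum, had 196, 186 and 172 RPKM with tyrosol and 181, 195 and 195 RPKM untreated. Its groups overlapped, at a ratio of 0.971. Of 18 genes in the symbol list for small GTPases and vesicle transport 4 were raised, 9 lowered and 5 not called, beside 40.6% of all tested features raised and 42.9% lowered, with a median log2 fold change of -0.08 against -0.04 over all features tested.

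Among genes of the cell wall, bgt2 (AN7950) and gel1 (AN7657) encode enzymes that cut and rejoin beta-1,3-glucan, as known from A. fumigatus, and chiA1 (AN8241) encodes a chitinase. The bgt2 gene had 986, 1034 and 1257 RPKM in tyrosol libraries and 1338, 1089 and 1077 RPKM in untreated libraries. One library was high in each group, tyrosol replicate 3 and untreated replicate 1. The gel1 gene had 443, 434 and 483 RPKM with tyrosol and 559.6, 489 and 445 RPKM untreated, and its groups overlapped.

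The chiA1 gene had 159, 174 and 176 RPKM in tyrosol libraries and 242, 189 and 152 RPKM in untreated libraries. The CV was 5.44% with tyrosol and 23.1% untreated, where it was the second largest of the 91 members, with replicate 1 high. In gel1, chiA1 and rgsA untreated replicate 1 was the highest of the untreated libraries, whereas in the proteasome genes it was the lowest of them. Without that library the TMM log2 fold change of chiA1 was 0.22 in place of 0.028, and that of gel1 0.19 in place of 0.089. For bgt2 it was 0.24 in place of 0.13. Among the 20 named members, the groups overlapped in 14, tyrosol was above in 1 and below in 5. Over all 91 members the groups overlapped in 67, tyrosol was above in 10 and below in 14. Of the tested features 84.8% had groups that did not overlap, 35.1% with tyrosol above and 49.8% with tyrosol below, but the window chose the members for close means, so nothing is read from this.

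**Figure D2:**
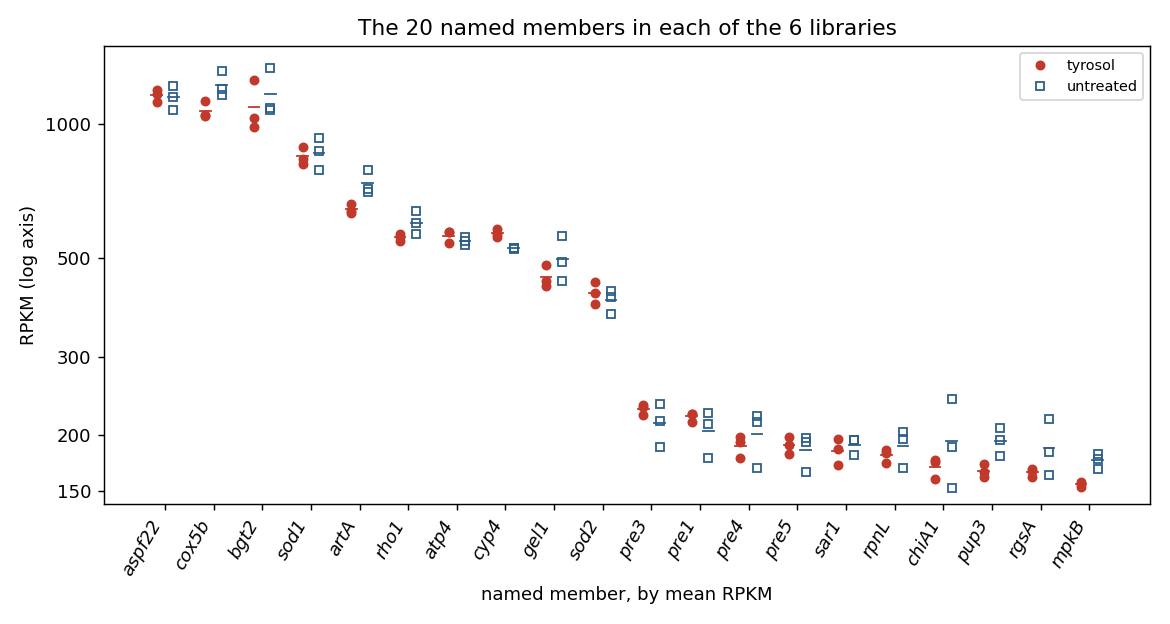
RPKM (log axis) of the 20 members with a gene symbol, ordered by mean level, with filled red circles for the 3 tyrosol libraries, open blue squares for the 3 untreated libraries and a short line at each mean. The blue squares are further apart than the red circles in 16 of the 20 genes by CV.

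The most abundant members had no symbol. AN8009 led with 4160.0, 4460.0 and 4179 RPKM in tyrosol libraries and 3914, 4184 and 3941 RPKM in untreated libraries, and its groups overlapped. AN20005, which the reference table does not list, had 2304, 2743 and 2706 RPKM with tyrosol and 1992, 2352 and 2450.3 RPKM untreated. AN9450 had 1891, 1817 and 1892 RPKM with tyrosol and 1664, 1946 and 1906 RPKM untreated. In these 3 genes replicate 1 was the lowest untreated library.

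AN6083 was the only one of the 4 most abundant members with separate groups, at 1992, 1835 and 1984 RPKM with tyrosol and 1787, 1658 and 1688 RPKM untreated. AN6330 had 979, 968 and 978 RPKM with tyrosol and 1013, 866 and 914 RPKM untreated, and AN0677 747, 685 and 872 RPKM with tyrosol and 709, 691 and 565 RPKM untreated. The CV was 0.628% with tyrosol and 8.08% untreated in AN6330, and 12.4% with tyrosol and 12.0% untreated in AN0677.

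The edges of the window cut through a continuous range of ratios. Just inside the lower edge were AN12213 at 0.851, pup3 at 0.857 and AN10575 at 0.857, and just outside it AN1941 at 0.846, AN11347 at 0.844 and stuA, a regulator of conidiophore shape, at 0.843. Just inside the upper edge were AN0677 and AN0630 at 1.17 and AN7148 at 1.15, and just outside it agd3 at 1.19, AN7299 at 1.19 and skpA, a ubiquitin ligase component, at 1.20. On level, AN0140, chiA1 and mpkB came closest to the minimum, with lowest values of 150.6, 152 and 153 RPKM. AN10568, AN6988 and bbp missed it with lowest values of 149, 146 and 145 RPKM. The ratio window alone, at any level, held 1317 genes.

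The spread between libraries of one group was smaller with tyrosol. The rule set no limit on spread, but its minimum of 150 RPKM left out genes with any library below it, such as AN10568. The median CV of the 91 members was 3.25% over tyrosol libraries and 8.30% over untreated libraries. It was smaller with tyrosol in 71 of the 91. The same held more widely: the medians were 3.96% with tyrosol and 8.08% untreated over the 445 abundant genes, and 6.82% with tyrosol and 10.7% untreated over the 8905 features tested, of which 67.4% had the smaller CV with tyrosol. Reads alone would give the members a median CV of 1.71% with tyrosol and 1.65% untreated, if counting error were the only error. In 21 members with tyrosol and 6 untreated the CV was below that member's own counting CV, so the order of the smallest CVs cannot be read as steadiness. The untreated value rested on 1 library: without untreated replicate 1 the median untreated CV was 2.92%. The like tyrosol values, with 1 tyrosol library left out, were 2.23% to 3.01%. These rest on fewer libraries than the 3.25% and 8.30%. The groups' spreads were not compared by a test.

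**Figure D3:**
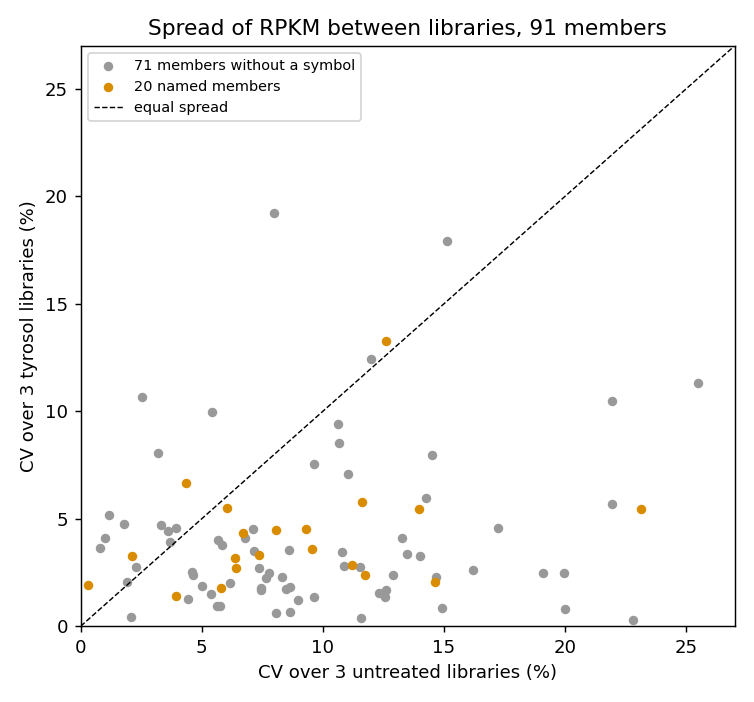
CV of RPKM over 3 tyrosol libraries (vertical, percent) against CV over 3 untreated libraries (horizontal, percent) for the 91 members, with the 20 named ones in orange and a dashed line at equal spread. Of the 91 points 71 lie below the line.

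Single members show how far this went. AN9001 had 297, 296 and 296 RPKM in tyrosol libraries, the smallest CV of all members (0.280%, below what counting error alone would give), against 254, 261 and 374 RPKM in untreated libraries (22.8%). Untreated replicate 3 alone was high. AN7894 had the widest untreated spread (25.5%), with 399, 374 and 464 RPKM with tyrosol and 353, 460.3 and 591 RPKM untreated.

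AN7895 lies next to AN7894 in the reference table's gene order on chromosome II and had 657, 544 and 781 RPKM with tyrosol and 635, 695 and 848 RPKM untreated. In both genes tyrosol replicate 2 was the lowest tyrosol library, replicate 3 was the highest library of each group, and the groups overlapped. They were the only pair of members that were direct neighbours, and 1 further pair, aspf22 and AN5744, had 1 gene between them. The widest tyrosol spread was in AN7148 (19.2%), with 241, 239.5 and 330.1 RPKM with tyrosol and 217, 234 and 255 RPKM untreated. Replicate 3 set that spread alone.

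Between the untreated libraries the members moved in 2 opposite ways that went in part with gene length. Replicate 1 was the lowest untreated library for 56 members and the highest for 30. The 21 members shorter than 800 bases had a median ratio of untreated replicate 3 over replicate 1 of 1.16, and the ratio was above 1 in 19 of them. In the 35 members from 800 to under 1200 bases the median was 1.14, and the ratio was above 1 in 26. In the 35 members of 1200 bases or more the median was 0.940, and the ratio was above 1 in 15. Across the 91 members, Spearman's rho of length with the log2 ratio was -0.51 for untreated replicate 2 over 1, -0.42 for replicate 3 over 1 and -0.21 for replicate 3 over 2. Across the 445 abundant genes the same values were -0.58, -0.47 and -0.022, so the relation was not particular to the members. For tyrosol replicate 3 over 1 it was 0.15 in the members. Genes are not independent replicates and share these libraries, so the values are descriptions, and whether length plays a part in the untreated spread was not tested.

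**Figure D4:**
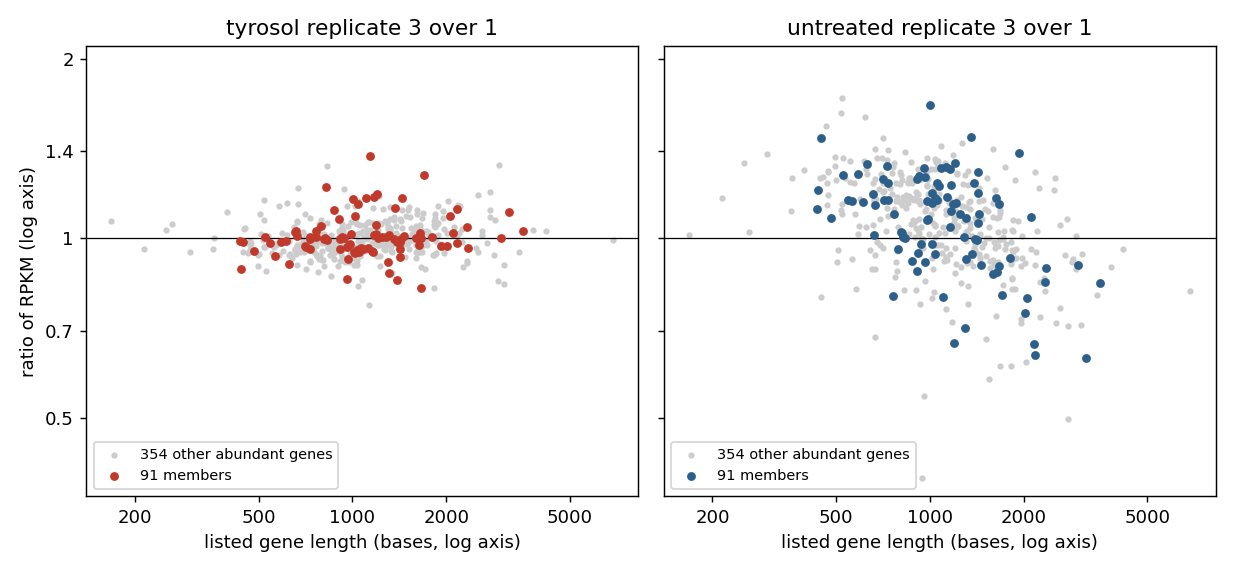
Ratio of RPKM in replicate 3 over replicate 1 (vertical log axis) against listed gene length (horizontal log axis), for tyrosol libraries on the left and untreated libraries on the right, with the 91 members in colour and the 354 other abundant genes in grey. Tyrosol members shorter than 800 bases have a median of 0.989. Untreated members shorter than 800 bases have a median of 1.16, those from 800 to under 1200 bases 1.14, and those of 1200 bases or more 0.940.

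The rule set the means of the 2 groups close on RPKM, which divides by the library total. TMM scaling, which sets the bulk of features level between libraries, gave factors of 0.919 to 0.929 for tyrosol libraries and 1.07 to 1.09 for untreated libraries. On that scale the members' log2 fold changes, tyrosol over untreated, ran from -0.0069 to 0.46 with a median of 0.20, and 90 of the 91 were above 0. Scaled by library size only, they ran from -0.23 to 0.23 with a median of -0.027, and 39 were above 0. Over all features tested, the median log2 fold change was lower by 0.22 with library size only than with TMM.

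The calls moved with the scaling. With TMM factors edgeR called 44 members raised and 0 lowered, beside 40.6% of all tested features raised and 42.9% lowered (83.5% in all). With library size only, it called 2 raised and 7 lowered, beside 34.5% raised and 49.4% lowered of all tested. Since the window used this contrast, these counts are descriptions. The count lowered was also 0 with DESeq2, which called 51 members raised, beside 40.5% of features raised and 40.1% lowered. Upper-quartile factors, which scale libraries by their upper range of counts, gave 28 members raised and 0 lowered, beside 38.6% raised and 45.0% lowered. On log2(RPKM + 1), limma called 3 members raised and 7 lowered, beside 34.5% raised and 49.2% lowered. On log2(RPKM + 0.1) it called 3 raised and 6 lowered, beside 34.4% raised and 49.1% lowered. With the replicate number as a block in edgeR, 41 were raised and 0 lowered, beside 40.4% raised and 42.5% lowered. The cyp4 gene had a log2 fold change of 0.34 ± 0.08 with TMM (SE), sod1 one of 0.20 ± 0.08, aspf22 one of 0.24 ± 0.08, and pup3 one of 0.0026 ± 0.083.

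**Figure D5:**
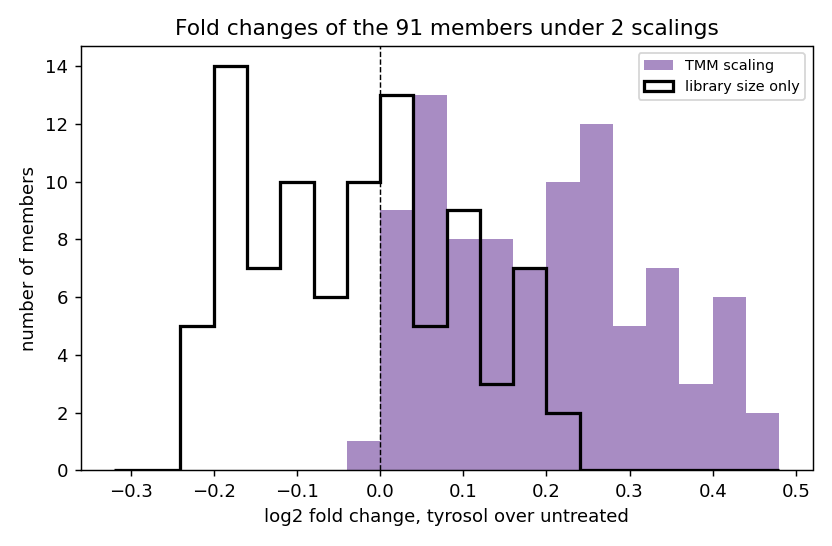
Histogram of the log2 fold change, tyrosol over untreated, of the 91 members, with TMM scaling filled in purple and scaling by library size only as a black outline. The median is 0.20 with TMM and -0.027 with library size only, and the dashed line marks 0.

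Applying the same rule to TMM-scaled RPKM chose 108 genes. It shared 52 with the 91, which is 57.1% of the RPKM set and 48.1% of the TMM set. Of the 20 named members 12 were in both: aspf22, cox5b, bgt2, sod1, artA, rho1, gel1, pre4, sar1, rpnL, pup3 and mpkB. The named genes chosen with TMM alone included rip1, pre2, pup2, stuA, bgt1 and cdc48, all with RPKM ratios under 0.85. In bgt1, for example, the RPKM ratio was 0.741.

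Genes often used as qPCR references were also compared. Of the symbols on the list fixed for this, the reference table gave act1 for actin, hhtA for histone H3 and gpdA for glyceraldehyde-3-phosphate dehydrogenase, and 0 of the 3 were members. Other symbols on it, those of tubulins and sarA among them, were not found. The member sar1 (AN0411) is not on the list under that symbol. The genes found are described here. Actin act1 averaged 801 RPKM with tyrosol and 1136 RPKM untreated, a ratio of 0.705. Histone hhtA averaged 1089 RPKM with tyrosol and 1689 RPKM untreated, a ratio of 0.645. The gpdA gene averaged 1435 RPKM with tyrosol and 3749 RPKM untreated, a ratio of 0.383. With TMM scaling their log2 fold changes were -0.28 ± 0.08, -0.41 ± 0.08 and -1.16 ± 0.10 (SE), and edgeR called all 3 lowered.

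The symbol lists for ribosomal proteins, translation factors, histones, and actin, tubulin and partners gave 0 members. The 71 members without a symbol could not be found this way. The last of these lists found act1, pfy1, arp1 and arp6 and no tubulin gene, so tubulins were not compared. All 8 ribosomal protein genes found were abundant and lowered, beside 42.9% of all tested features lowered. Their RPKM ratios ran from 0.320 for rps0 to 0.652 for rps1. The median log2 fold change was -0.61, against -0.04 over all features tested. Of 7 genes that the translation factor list found, 1 was raised (gcnE) and 6 lowered, beside 40.6% of all tested features raised and 42.9% lowered. Of these 7, 0 reached 150 RPKM in every library. This list too picks symbols by their first letters, so gcnE need not be a translation factor. The histone variant gene htz1 was raised, unlike hhtA, at 438 RPKM with tyrosol and 264 RPKM untreated. The profilin gene pfy1, whose product binds actin, averaged 664 RPKM with tyrosol and 433 RPKM untreated, above the window at a ratio of 1.53. Of 3 antioxidant genes that the symbol list found, cat1 was raised, catA was lowered and ccpA was not called. The symbols sod1 and sod2 are not on that list, although both genes are members.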

How the data were processed

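RNA from Aspergillus nidulans mycelium was sequenced in 3 tyrosol and 3 untreated libraries. Per the labels' protocols, total RNA was extracted from freeze-dried mycelium and sequenced from TruSeq libraries. The tools listed in the submitters' processing notes, with no roles, are HISAT2 2.1.0, edgeR, DESeq2 1.24.0 and FastQC. No source used here gives the read counter, strand setting, genome build or annotation, so overlapping, antisense and near-identical genes may share reads.

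The deposited table holds 10988 features with, per the file headers, their read count, length and RPKM in each library. Dividing the deposited counts by length and column total gave back the deposited RPKM (largest relative difference 1.26e-14). Columns headed T were read as tyrosol and columns headed K as untreated, K being taken for the Hungarian word for control, and column numbers as replicate numbers. Libraries held 9353438 to 11917409 reads, and members had 1127 to 64380 reads in a tyrosol library and 996 to 63950 in an untreated one. Symbols were looked up by locus tag in NCBI RefSeq's annotation of ASM1142v1, where 10029 features (91.3%) were found. Its coordinates served only for gene order.

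The members and lists were chosen with earlier results of these data known. Named genes are the members with a symbol, the most abundant, those with the largest and smallest spread, those at the edges of the rule, and genes of fixed symbol lists. The comparison genes cat1, pgkA, htz1, pfy1, acoA, rip1 and the proteasome non-members were picked from those lists after their values had been looked at. The counts of all 8905 features passing filterByExpr were fitted with edgeR 4.0.16 (R 4.3.3): TMM scaling, two-sided quasi-likelihood test, Benjamini-Hochberg adjusted p under 0.05, no covariate. The fit was tested on simulated data. In them 200 features were changed, against 7432 called here, so they do not show how the scaling behaves in these data. Because the ratio of group means chose the members, fold changes and calls of members are descriptions. Alternatives were DESeq2 1.42.0, limma 3.58.1 on log2(RPKM + 1) and log2(RPKM + 0.1), other scalings, no filter on low counts, the replicate number as a block, other limits of the rule, and each library left out. The replicates are not stated to be separate cultures, so the spread may be technical.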

Additional observations from a re-analysis of the deposited data

How the results depend on the processing

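The number of genes under the rule was 141 with a minimum of 100 RPKM, 38 with 300 RPKM and 60 with a window from 0.90 to its reciprocal rounded to 2 decimals. It was 134 with TPM (82 shared), 88 with medians in place of means (82 shared), and 85 to 96 with 1 library left out, where 80 to 89 were shared. The count of members called raised, 44 with TMM, was 28 with upper-quartile factors, 2 with library size only, 3 with limma on log2(RPKM + 1) and 3 with log2(RPKM + 0.1), and 34 to 45 with 1 library left out. The count called lowered, 0 with TMM, was 7, 7 and 6 in the last 3 of these scalings and tools. The members' median log2 fold change was 0.13 with upper-quartile factors, -0.027 with library size only and -0.014 with both limma fits, and 0.19 to 0.23 with 1 library left out. For sod1, called raised with TMM, the log2 fold change was -0.027 with library size only and -0.025 with both limma fits. Its call was also lost with upper-quartile factors (0.13), with no filter on low counts (0.19) and under the replicate block (0.20). The median CV ran from 2.23% to 3.01% with tyrosol and from 2.92% to 10.4% untreated when 1 library of the group was left out. Library-size scaling and RPKM divide by library totals, as the rule did. The cause of the other shifts was not tested. The 7432 features changed became 7383 with the replicate number as a block, and 41 members were then called raised. Same-numbered libraries did not deviate together (correlations of -0.0821, -0.0059 and -0.0404 over 8905 features), and 0 of 3 tyrosol libraries correlated best with its own number. Each member had at least 996 reads in a library, and the members' median counting CV with tyrosol was 1.71%, below the 3.25% seen there.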

Other observations

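The 240 features without a plain AN number are tRNA genes, upstream open reading frames and other features with their own names, and 0 of them reached 150 RPKM in all 6 libraries. Of the 354 abundant genes that were not members, 63 had a symbol.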
